A study of Mus musculus with 46 samples.

Results

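Collagen chains were followed in the hearts of adult mice in which Lmna, the gene of the A-type lamins, was floxed and a Cre recombinase was driven in cardiomyocytes. The members were all rows of the gene count table whose symbol has the form Col, a number, a and a number. This gave 44 of 55359 rows. A member was described in a library kit where its mean over that kit's libraries was at least 0.5 CPM (counts scaled to the total of the library), which held for 30 chains in the NEBNext libraries, 25 in the QuantSeq libraries, 24 in both and 31 in either. All described chains also passed the filter on low counts, among 15627 genes tested in NEBNext and 14812 in QuantSeq. The weakest chain inside the limit was Col26a1 at 0.561 CPM in NEBNext and Col13a1 at 0.849 CPM in QuantSeq. Just outside stood Col9a2 at 0.396 CPM in NEBNext and Col8a2 at 0.497 CPM in QuantSeq. Col11a1 was described in QuantSeq alone, at 0.910 against 0.129 CPM in NEBNext. The 13 chains not described in either kit were Col2a1, Col6a4, Col6a5, Col7a1, Col9a1, Col9a2, Col9a3, Col10a1, Col17a1, Col19a1, Col22a1, Col24a1 and Col25a1.

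Every mouse carried 1 copy of the transgene Myh6MCM (Tg/0; written My6MCM in some labels), a tamoxifen-inducible Cre under the cardiomyocyte promoter of Myh6, and every mouse, controls included, was injected intraperitoneally with tamoxifen on 4 consecutive days at 6 to 8 weeks of age. Hearts were perfused with KCl and extracted whole, so RNA of cardiomyocytes and of all other cells was mixed. In the time course, 26 NEBNext poly(A) libraries compared Lmna F/F with Lmna +/+ hearts (here wild type) at 1 week (4 against 5 libraries), 11 days (2 against 3) and 2 weeks (5 against 7) after tamoxifen. In the cross with the DNA sensor gene cGas, 20 QuantSeq 3' libraries at 2 weeks compared Lmna F/F with Lmna F/+ hearts, 6 against 6 with cGas +/+ and 4 against 4 with cGas null/null. Controls thus differed between the kits: +/+ in NEBNext and F/+ in QuantSeq. By the labels every group held both sexes except the F/+ hearts without cGas, which were all male. Sex was a covariate in the edgeR fits but was not taken into account in ranges, shares and chain ratios. The time course asks when the change in matrix genes begins after Lmna deletion, and the cross asks whether it needs cGas. Whether each library is a mouse of its own is not stated in the labels, and the p-values therefore rest on library-to-library spread, which may be technical.

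Collagens are extracellular proteins of 3 chains wound into a triple helix. Fibrillar collagens (types I, II, III, V, XI, XXIV and XXVII) assemble into the fibrils that give the heart its tensile strength and that accumulate in fibrosis, and in the heart they are made mostly by fibroblasts. Type IV collagen forms the sheet of the basement membrane around cardiomyocytes and vessels, network-forming type VIII lines vessels, and FACIT collagens (XII, XIV, XVI and XX here) sit on the surface of fibrils. The remaining described chains were the beaded-filament type VI, the multiplexins XV and XVIII, the transmembrane types XIII and XXIII, and types XXVI and XXVIII.

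Promoter sequence was available for 25 of the 31 described chains (27 windows, of which the 250 bases before a RefSeq start were used, RefSeq GRCm38.p6, which is not the build of the count files). The 140 bases before the start are shown 5′ to 3′ for 4 chains that rose at 2 weeks (below) and for Col13a1, which fell, so that chains that moved together can be compared with the chain that moved the other way. Capitals mark the CCAAT box, the TATAAA box or the GC box GGGCGG, which reads CCGCCC where it lies on the other strand.
Col1a2 (chr6:4505478-4505617, plus strand): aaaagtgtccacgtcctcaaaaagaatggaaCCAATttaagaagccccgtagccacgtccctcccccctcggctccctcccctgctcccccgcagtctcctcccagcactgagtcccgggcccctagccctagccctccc
Col3a1 (chr1:45311398-45311537, plus strand): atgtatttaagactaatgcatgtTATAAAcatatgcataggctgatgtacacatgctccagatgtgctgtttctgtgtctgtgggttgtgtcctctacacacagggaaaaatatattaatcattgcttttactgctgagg
Col5a1 (chr2:27886285-27886424, plus strand): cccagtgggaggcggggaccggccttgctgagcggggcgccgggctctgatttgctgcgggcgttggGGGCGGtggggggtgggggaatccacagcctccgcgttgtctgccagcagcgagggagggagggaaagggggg
Col8a1 (chr16:57754738-57754877, minus strand): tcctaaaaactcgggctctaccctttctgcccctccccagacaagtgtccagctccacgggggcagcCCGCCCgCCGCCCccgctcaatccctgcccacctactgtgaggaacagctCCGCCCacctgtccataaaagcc
Col13a1 (chr10:61979109-61979248, minus strand): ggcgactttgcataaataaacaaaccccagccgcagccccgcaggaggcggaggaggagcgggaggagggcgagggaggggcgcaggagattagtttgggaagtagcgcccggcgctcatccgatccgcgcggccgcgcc
The first base of the CCAAT of Col1a2 lay 109 bases before the start, the TATAAA of Col3a1 117 bases before it and the GGGCGG of Col5a1 73 bases before it, while Col8a1 held 3 GC boxes, 23, 66 and 73 bases before it. Col13a1 held none of these letters in the bases shown. Over the full 250 bases it did hold TATAAA, and Col1a2 held GGGCGG besides CCAAT, so the cut at 140 bases shapes what is marked. Both strands of these 250 bases were searched. GGGCGG was in 63.0% of the collagen windows against 32.7% of all 32851 windows, CCAAT in 29.6% against 33.8%, TATAAA in 11.1% against 12.4% and TGANTCA (the AP-1 site) in 3.7% against 6.75%. A match describes letters and not a bound site.

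Several chains lie side by side with no coding gene between them: Col3a1 and Col5a2 on chromosome 1, Col4a3 and Col4a4 on chromosome 1, Col6a1 and Col6a2 on chromosome 10, Col4a1 and Col4a2 on chromosome 8, and Col4a5 and Col4a6 on chromosome X. The type IV pairs lie head to head. How the counting treated strand is not stated in the labels or headers, so the division of reads between such neighbours is uncertain.

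Total counts ran from 8477358 to 25856892 in NEBNext libraries and from 22099181 to 33993289 in QuantSeq libraries. Lmna itself was at 33.3 ± 4.38 normalised CPM (CPM on scaled library sizes; SD, n = 4) in F/F and 59.0 ± 9.21 (n = 5) in wild type hearts at 1 week, and at 85.2 ± 26.9 (n = 5) and 113 ± 7.02 (n = 7) at 2 weeks. At 11 days the libraries labelled F/F had 58.3 and 58.4, within the wild type range of 52.0 to 118, so this gene did not separate those groups. In QuantSeq it was at 20.5 in F/F against 22.0 in F/+ hearts with cGas and 22.2 against 23.7 without, so its level does not check the deletion there. Cgas was at 2.88 ± 0.764 (n = 6) in F/F and 1.45 ± 0.666 (n = 6) in F/+ hearts with cGas +/+, and at 0.875 ± 0.258 (n = 4) and 0.565 ± 0.243 (n = 4) with cGas null/null, lower in the null groups but not 0. The 7 cardiomyocyte markers summed to 76147 to 95107 normalised CPM in wild type hearts at 2 weeks.

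Per transcript length, in the deposited TPM averaged over all NEBNext libraries, Col3a1 was the most abundant chain at 189 TPM, followed by Col1a2 at 68.8, Col4a1 at 58.7 and Col1a1 at 51.4. Col3a1 encodes the only chain of type III collagen, Col1a1 and Col1a2 the chains of type I, and Col4a1 with Col4a2 (38.9 TPM) the common type IV of basement membranes. The type VI chains Col6a2 at 42.2 TPM and Col6a1 at 41.4 TPM came next. Col15a1 reached 21.8 TPM, Col5a2 13.5 TPM and Col5a1 10.05 TPM, these last 2 encoding chains of type V, which initiates fibrils. Among the lower chains Col8a1 was at 7.49 TPM, Col6a3 at 7.15, Col14a1 at 5.31, Col16a1 at 3.39, Col12a1 at 0.398, Col8a2 at 0.386 and Col13a1 at 0.319.

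**Figure D1:**
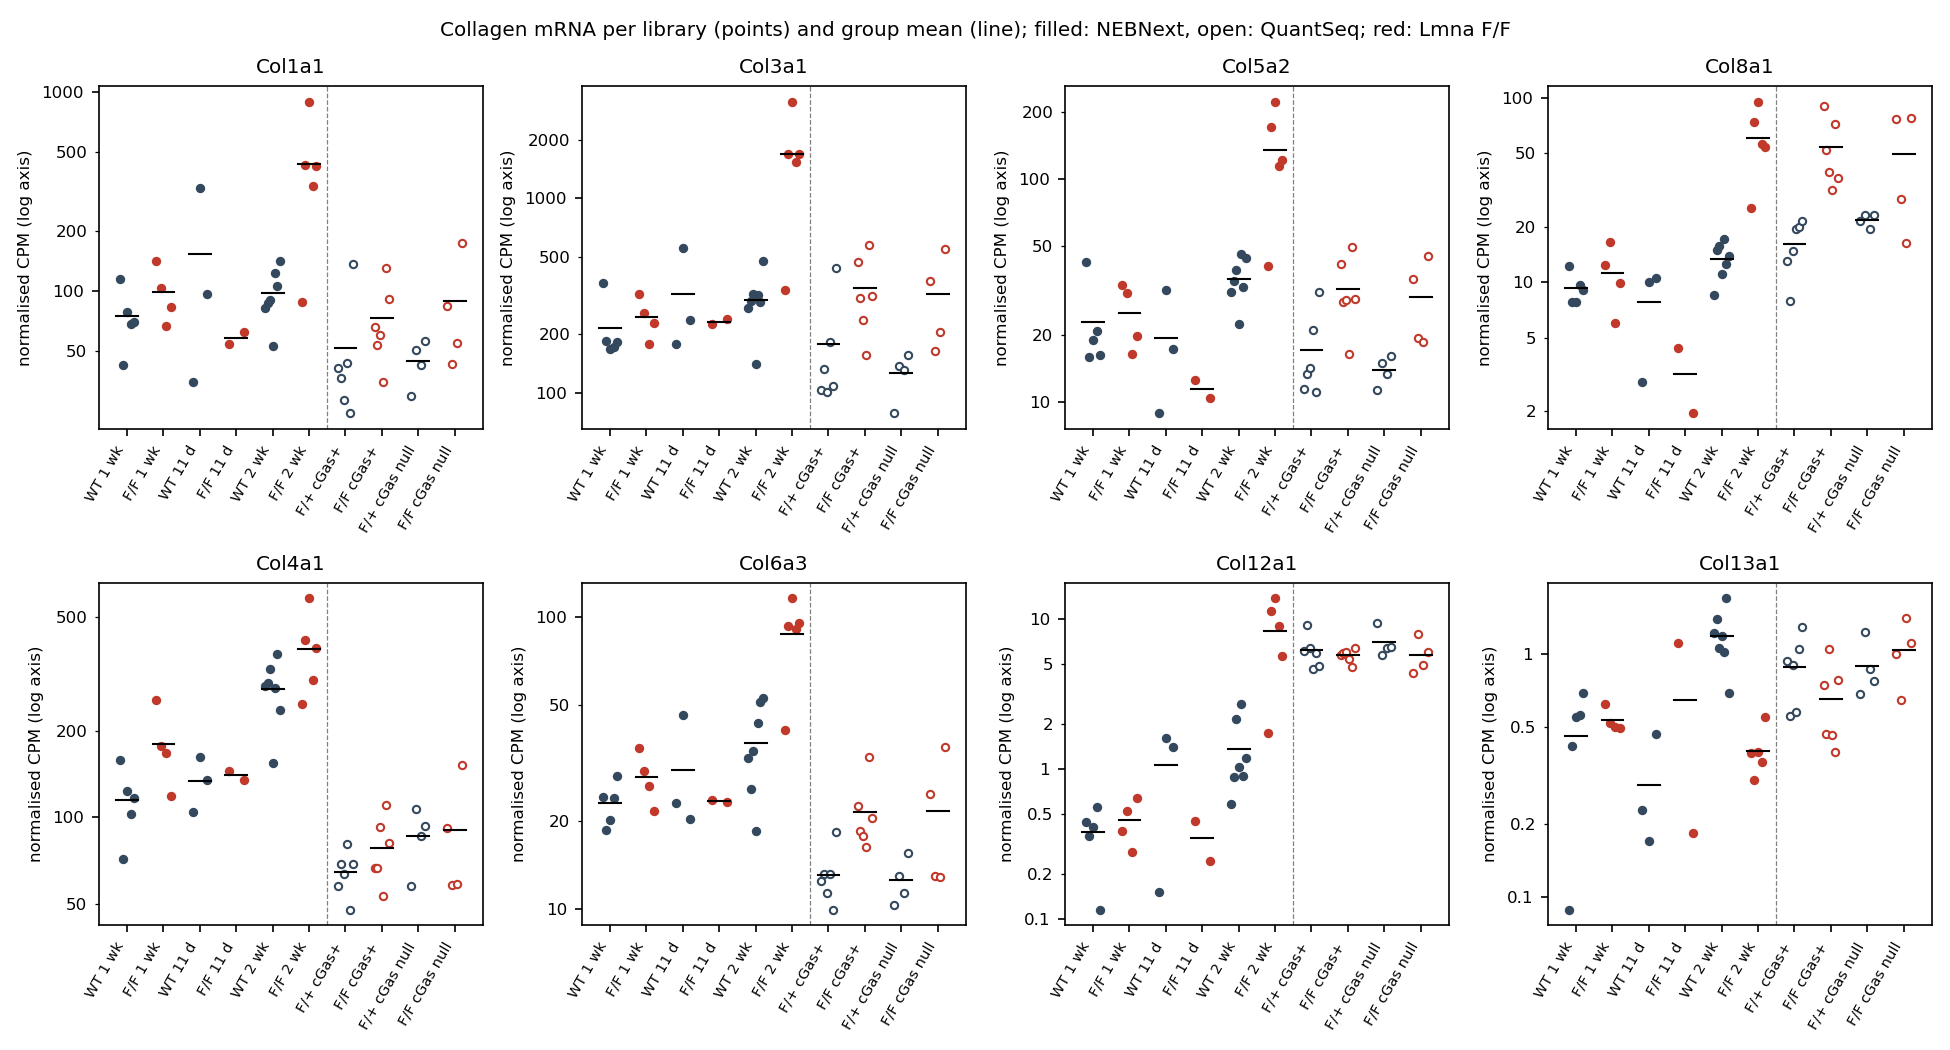
Normalised CPM of 8 collagen chains (log axis) by group, with 1 point per library, a line at the group mean, filled points for NEBNext and open points for QuantSeq. At 2 weeks the Col3a1 points of F/F hearts reach 3134 against a highest wild type value of 473. The lowest F/F heart, at 339, lies within the wild type range of Col3a1, and Col4a1 of the groups overlaps.

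At 2 weeks, 13 of 30 chains differed between F/F and wild type hearts by edgeR's quasi-likelihood test at an adjusted p under 0.05: 12 were higher, where 16.2% of all genes were called higher, and 1 was lower, where 13% of all genes were. The rise was in fibrillar (6 of 8), network (2 of 2) and FACIT (3 of 4) chains and in Col6a3, and the fall in Col13a1. None of the 6 basement membrane chains was called. Over the 30 chains the median log2 fold change was 0.63, with 23 above 0, against a median of 0.04 over all genes.

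Col3a1 stood at 140, 296 and 473 normalised CPM (lowest, median, highest) in the 7 wild type hearts and at 339, 1691, 3134, 1527 and 1694 in F/F replicates 1 to 5. All F/F hearts but replicate 1 were thus above every wild type heart. Its log2 fold change was 2.11 ± 0.36 (SE; edgeR adjusted p = 0.000136).

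Col1a2 had 105, 155 and 180 normalised CPM in wild type and 177, 587, 894, 376 and 484 in F/F hearts, a log2 change of 1.64 ± 0.38 (edgeR adjusted p = 0.00206). Its partner Col1a1 had 53.0, 89.5 and 141 in wild type and 87.7, 430, 893, 337 and 423 in F/F hearts, with 1.83 ± 0.44 (edgeR adjusted p = 0.00289). For both type I chains the single overlapping F/F heart was again replicate 1.

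The type V chains followed. Col5a2 was at 22.3, 35.0 and 46.0 in wild type and 40.9, 172, 223, 115 and 122 normalised CPM in F/F hearts (log2 1.74 ± 0.34, edgeR adjusted p = 0.000571). Col5a1 was at 24.3, 39.4 and 45.7 against 35.8, 105, 192, 85.2 and 104 (log2 1.23 ± 0.34, edgeR adjusted p = 0.00814). Again replicate 1 was the F/F heart within the wild type range. The low-abundance fibrillar chain Col27a1, best known from cartilage, had 1.01, 1.78 and 2.77 in wild type and 2.69, 5.41, 10.1, 5.89 and 6.28 in F/F hearts (log2 1.38 ± 0.27, edgeR adjusted p = 0.000527). The fibrillar chains that were not called were Col5a3, at 0.31 ± 0.33 (edgeR adjusted p = 0.515), and Col11a2, at -0.50 ± 0.52 (edgeR adjusted p = 0.503).

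Col8a1, a chain of the hexagonal type VIII network found around vessels, was the only one of the 30 whose groups did not overlap upward at 2 weeks, where 6.67% of all genes had this pattern. It had 8.58, 13.9 and 17.2 normalised CPM in wild type and 25.3, 73.6, 95.5, 56.3 and 54.1 in F/F hearts, a log2 change of 2.13 ± 0.31 (edgeR adjusted p = 3.43e-05). Its partner Col8a2 was far scarcer, at 0.421, 0.823 and 1.26 against 0.505, 2.48, 3.64, 1.37 and 2.16 (log2 1.21 ± 0.42, edgeR adjusted p = 0.0311).

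Of the FACIT chains, Col12a1 changed by the most of all 30 described chains on the fitted scale. It was at 0.579, 1.04 and 2.71 normalised CPM in wild type and 1.74, 11.2, 13.8, 8.996 and 5.62 in F/F hearts (log2 2.58 ± 0.48, edgeR adjusted p = 0.000307). Col14a1, which also binds type I fibrils, was at 8.36, 14.3 and 29.0 against 13.3, 44.2, 62.6, 49.9 and 49.0 (log2 1.12 ± 0.31, edgeR adjusted p = 0.00894). Col16a1 was at 6.81, 8.98 and 12.1 against 7.12, 29.7, 36.1, 19.2 and 25.5 (log2 1.15 ± 0.30, edgeR adjusted p = 0.00553). Col20a1, the fourth FACIT chain described, was at -0.08 ± 0.36.

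Among the other types the abundant type VI chains Col6a1 and Col6a2 were not called. Col6a1 had 66.9, 103 and 121 normalised CPM in wild type and 83.5, 217, 219, 148 and 197 in F/F hearts (log2 0.67 ± 0.27, edgeR adjusted p = 0.0677). Col6a2 had 68.3, 110 and 143 against 91.1, 250, 256, 168 and 235 (log2 0.68 ± 0.28, edgeR adjusted p = 0.0677). The third type VI chain, Col6a3, named here because it completes the count of risen chains, had 18.4, 34.6 and 52.9 against 41.0, 93.1, 116, 90.6 and 95.6 (log2 1.00 ± 0.22, edgeR adjusted p = 0.00139). The multiplexin Col15a1, a basement-membrane-associated chain, had 38.6, 74.2 and 92.3 against 51.1, 153, 149, 88.4 and 119 (log2 0.52 ± 0.30, edgeR adjusted p = 0.205).

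Col13a1, a transmembrane collagen of cell-matrix junctions, fell. Its levels were 0.689, 1.18 and 1.69 normalised CPM in wild type and 0.392, 0.303, 0.395, 0.360 and 0.548 in F/F hearts, a log2 change of -1.39 ± 0.37 (edgeR adjusted p = 0.00602). The groups did not overlap, as was so downward for 5.68% of all genes, but the level was close to the limit of description. The mean was 1.18 in wild type and 0.400 in F/F hearts of 2 weeks. It was 0.459 and 0.533 at 1 week, and 0.288 and 0.645 at 11 days. The wild type hearts of 2 weeks thus did most to bring this chain past the limit. The F/F level of 2 weeks was near that of wild type hearts at 1 week.

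In the basement membrane class the fitted values lay between -0.43 and 0.39 with a median of -0.02, and 0 of 6 chains reached even an unadjusted p under 0.05 (edgeR). Col4a1 had 155, 288 and 371 normalised CPM in wild type and 248, 415, 583, 301 and 390 in F/F hearts (log2 0.39 ± 0.24, edgeR adjusted p = 0.225, 95% interval -0.07 to 0.85). Col4a2 had 94.999, 169 and 235 against 150, 236, 350, 186 and 250 (log2 0.36 ± 0.21, edgeR adjusted p = 0.205, 95% interval -0.05 to 0.76). Col4a5, whose chain joins type IV networks of other composition, had 19.8, 22.6 and 25.7 against 24.4, 20.6, 27.7, 30.5 and 26.5 (log2 0.15 ± 0.14, edgeR adjusted p = 0.456). These intervals include no change and also rises of up to 0.85 on the log2 scale. With library totals and no scaling factor, which moved the median of all genes from 0.04 to 0.29, Col4a1 was at 0.66 (edgeR adjusted p = 0.0678).

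**Figure D2:**
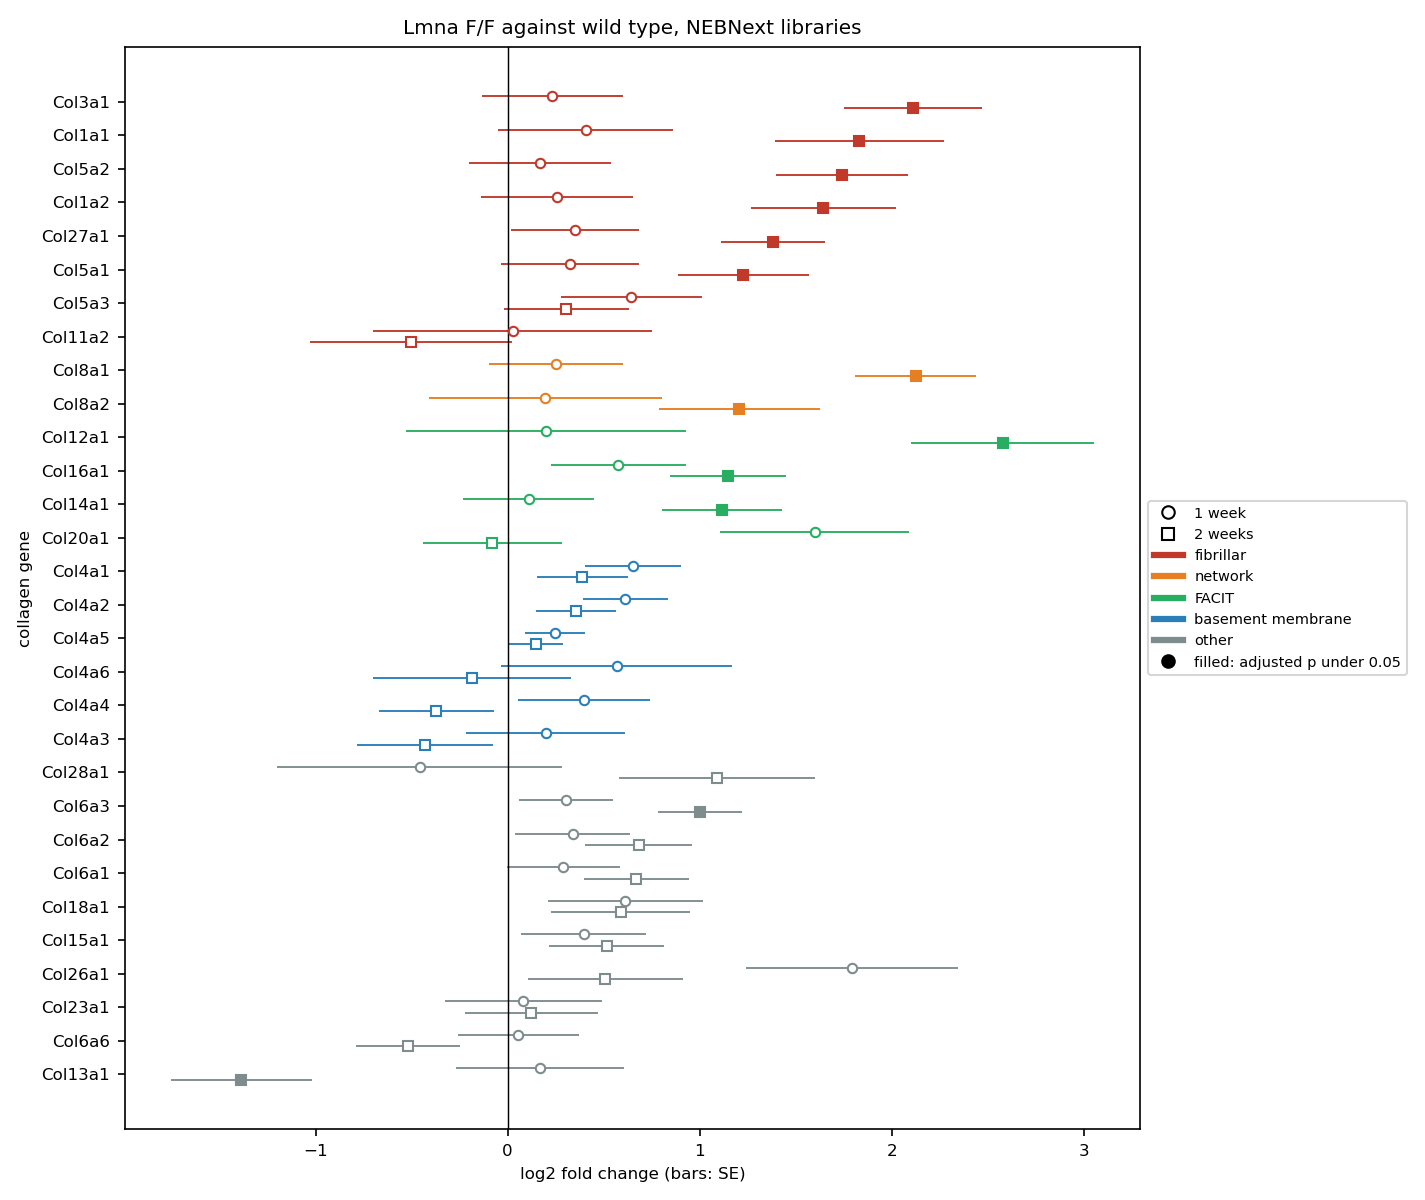
Log2 fold change of each described chain in F/F against wild type hearts at 1 week and 2 weeks in NEBNext libraries (points; bars are SE), ordered by class, filled where the edgeR adjusted p was under 0.05. Fibrillar, network and FACIT chains at 2 weeks reach 2.58, while the basement membrane chains lie between -0.43 and 0.39.

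The F/F hearts of 2 weeks were uneven: replicate 1 had the lowest value of the group for 24 of 30 chains and replicate 3 the highest for 19. The labels place the 2-week libraries in pools named KIUC033, holding F/F replicates 1 and 2 and 5 wild type hearts, and KIUC035, holding F/F replicates 3 to 5 and 2 wild type hearts. Fitted within KIUC033 alone, where 349 of all 13970 genes were called, Col8a1 was the only chain called (log2 1.45 ± 0.29, edgeR adjusted p = 0.0443), with Col3a1 at 1.24 ± 0.46 (edgeR adjusted p = 0.157), Col1a1 at 0.85 ± 0.35, Col12a1 at 1.25 ± 0.51 and Col13a1 at -1.65 ± 0.40 (edgeR adjusted p = 0.062). Within KIUC035 alone 16 chains were called, as were 4894 of all 15068 genes, with Col3a1 at 2.44 ± 0.38 (edgeR adjusted p = 0.00402), Col1a1 at 2.10 ± 0.36 and Col12a1 at 3.19 ± 0.38. Col4a1 was among them, at 0.58 ± 0.18 (edgeR adjusted p = 0.044), and Col13a1, at -1.28 ± 0.51 (edgeR adjusted p = 0.0911), was not. Without F/F replicate 2 the number called was 8 (and 3046 of all 15660 genes), with Col1a1 (edgeR adjusted p = 0.082), Col5a1, Col8a2, Col14a1 and Col16a1 no longer among them.

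Marker genes of other cell types moved at 2 weeks as well. Macrophage markers were called higher in 6 of 6 (summed level 190 to 259 normalised CPM in wild type, 261 to 1024 in F/F hearts) and cardiomyocyte markers lower in 6 of 7 (76147 to 95107 against 35478 to 63216). Of 7 fibroblast markers, Pdgfra and Meox1 were higher and Gsn and Scara5 lower, with sums of 1601 to 3218 in wild type and 1011 to 2312 in F/F hearts. Most of that sum was Gsn, at 2211 ± 476 in wild type and 1251 ± 495 in F/F hearts, while Pdgfra was at 31.6 ± 5.73 and 51.7 ± 11.0, and Meox1 at 18.3 ± 5.90 and 54.1 ± 24.8 (SD). Of 6 endothelial markers 3 were lower (530 to 695 against 431 to 533), of 8 smooth muscle and pericyte markers 1 was higher and 1 lower, of 4 epicardial markers 0 were called, and of 4 valve or cartilage markers tested 1 was higher. Schwann cell and adipocyte lists had 0 called by edgeR and 0 at an unadjusted p under 0.05. Atrial markers summed to 320 to 1290 in wild type and 426 to 3221 in F/F hearts, Nppa alone being higher. With the summed atrial level as a covariate, a fit chosen after seeing the data, 9 chains and 2769 of all 15627 genes were called, and Col5a1, Col8a2, Col14a1 and Col16a1 were not. The part of fibroblasts and the other cell types in the result was not tested, and fewer cells of a type and less RNA per cell cannot be told apart in whole hearts.

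The make-up of collagen mRNA, on the length-scaled TPM, differed with the genotype at 2 weeks. Fibrillar chains made up 42.3 ± 3.61% (SD, n = 7) of collagen TPM in wild type and 64.1 ± 9.63% (n = 5) in F/F hearts, with wild type values of 38.7 to 49.6% and F/F values of 47.9 to 73.6%. The basement membrane share was 28.3 ± 4.39% in wild type and 15.2 ± 6.09% in F/F hearts, and that of the other types 26.4 ± 1.05% and 17.3 ± 3.83%. Network chains made up 1.10 ± 0.256% and 1.72 ± 0.237%. At 1 week the fibrillar share was 47.6 ± 3.05% (n = 5) in wild type and 44.9 ± 3.76% (n = 4) in F/F hearts. In mean TPM at 2 weeks Col3a1 went from 89.8 ± 34.2 in wild type to 691 ± 481 in F/F hearts, and Col4a1 from 69.6 ± 18.9 to 129 ± 60.01. Shares of a whole depend on each other, and no test was made of them.

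**Figure D3:**
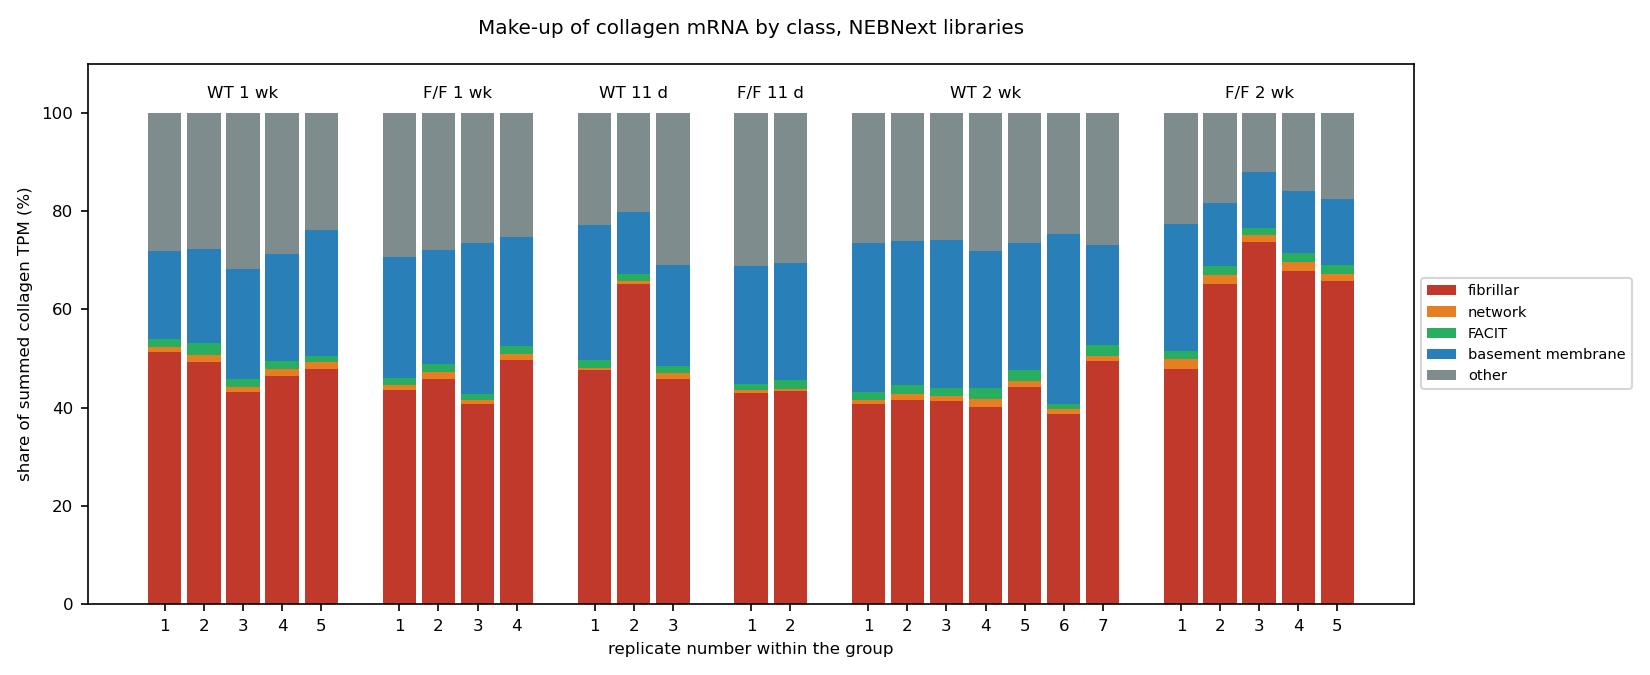
Share of summed collagen TPM (percent) taken by each class in every NEBNext library, as stacked bars by group and replicate. The fibrillar share of F/F hearts at 2 weeks lies between 47.9 and 73.6%, against 38.7 to 49.6% in wild type.

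The chains did not all rise alike, either within a type (V and VIII) or between types. Ratios of the counts of 2 chains were compared by an exact two-sided permutation test for 11 pairs, and 5 differed at 2 weeks after Benjamini-Hochberg adjustment over the pairs. Col1a1 rose against Col4a1: the count ratio was 0.271 to 0.593 in wild type and 0.354, 1.04, 1.53, 1.12 and 1.08 in F/F hearts, a log2 difference of 1.43 (exact permutation p = 0.00379, adjusted 0.0243). Col3a1 rose slightly against Col1a1, from 2.58 to 3.58 in wild type to 3.51 to 4.54 in F/F hearts (log2 difference 0.36, exact permutation p = 0.00758, adjusted 0.0243). The ratio of Col5a1 to Col5a2 fell by 0.46 on the log2 scale, from 0.804 to 1.27 in wild type to 0.611 to 0.875 in F/F hearts (exact permutation p = 0.00884, adjusted 0.0243). So within type V the Col5a2 mRNA gained on Col5a1.

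Col8a1 gained on Col8a2 by 0.88 on the log2 scale, from ratios of 10.9 to 30.0 to ratios of 24.8 to 47.5 (exact permutation, adjusted p = 0.0243). Col12a1 gained on Col14a1 by 1.10, from 0.0412 to 0.152 to 0.115 to 0.254 (exact permutation p = 0.0202, adjusted 0.0444), but not in the deposited TPM with the same pseudocount of 0.5 (log2 difference -0.17, adjusted p = 0.659). There Col12a1 was at 0.0834 to 0.369 TPM in wild type and 0.248 to 3.06 TPM in F/F hearts. Of the 6 pairs that did not pass, Col6a3 to Col6a1 differed by 0.50 (exact permutation p = 0.0303, adjusted 0.0556), Col1a1 to Col1a2 by 0.29 (adjusted p = 0.268), Col4a3 to Col4a4 by -0.20, Col15a1 to Col18a1 by -0.05, Col6a1 to Col6a2 by -0.04 and Col4a1 to Col4a2 by 0.00 (exact permutation p = 0.952). With 1 library left out, the lowest adjusted p of the permutation test was 0.0286 for Col6a3 to Col6a1. It was 0.0476 for Col1a1 to Col1a2, 0.0444 for Col4a3 to Col4a4 and at least 0.275 for the rest of these pairs. Within the pools KIUC033 and KIUC035 the differences were 0.92 and 1.59 for Col1a1 to Col4a1, 0.34 and 0.39 for Col3a1 to Col1a1, -0.52 and -0.49 for Col5a1 to Col5a2, 0.87 and 1.25 for Col8a1 to Col8a2, and 1.08 and 1.31 for Col12a1 to Col14a1. Leaving out F/F replicate 2 or F/F replicate 4 left 0 pairs past the adjusted threshold.

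**Figure D4:**
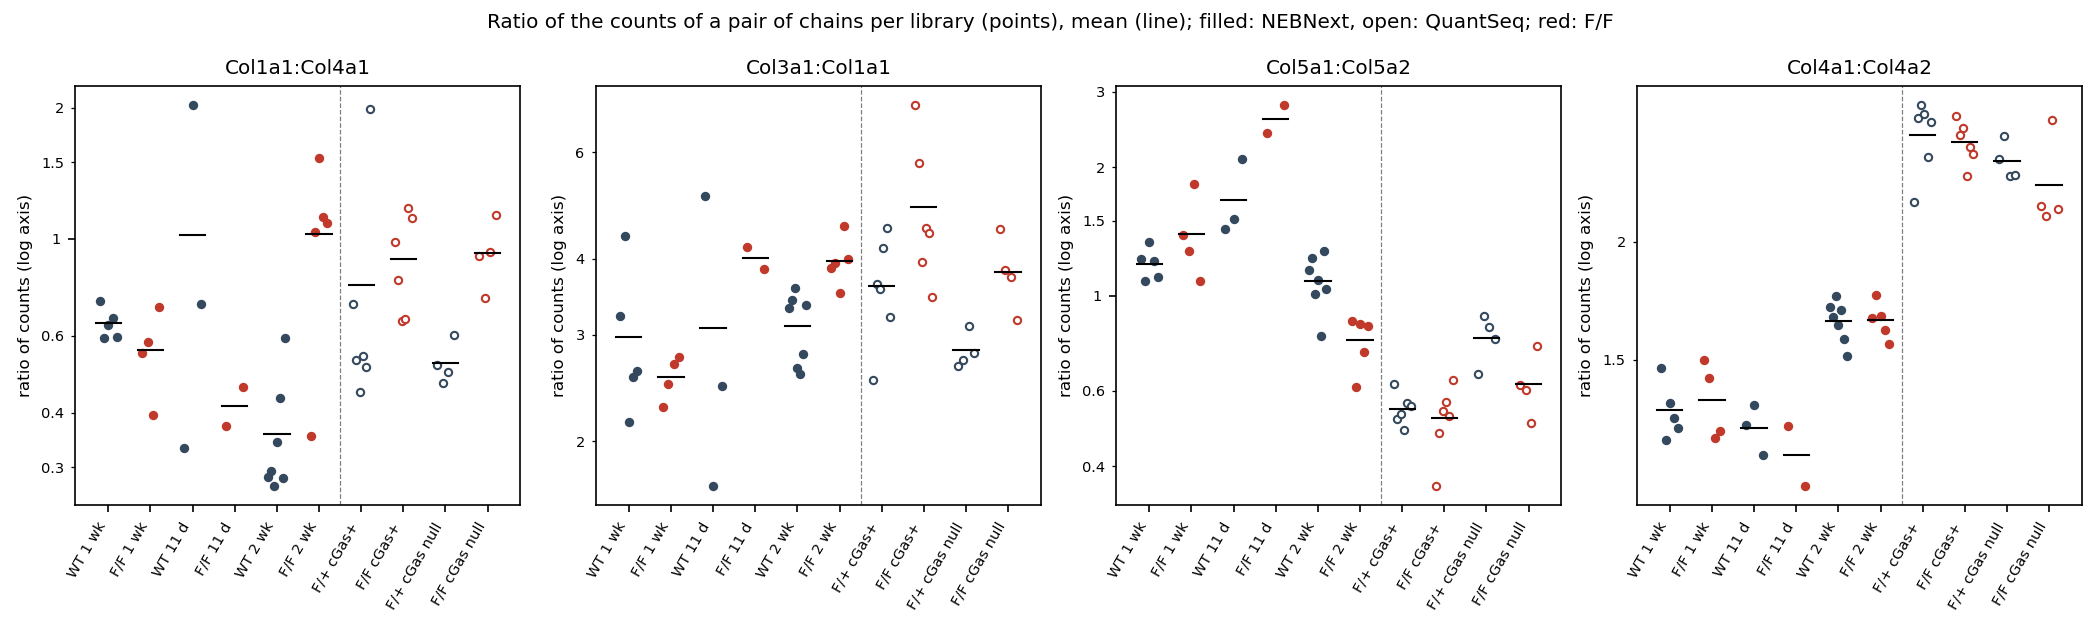
Ratio of the counts of 4 pairs of chains (log axis) by group, with 1 point per library and a line at the group mean; filled points are NEBNext, open points QuantSeq. The Col1a1 to Col4a1 ratio at 2 weeks is 0.354 to 1.53 in F/F hearts and 0.271 to 0.593 in wild type hearts. Its lowest F/F value lies within the wild type range, and the Col4a1 to Col4a2 ratios of the groups overlap.

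At 1 week, 0 of 30 chains were called by edgeR, where 0.0256% of all genes were. At an unadjusted p under 0.05 there were 4, and DESeq2 and limma-voom also called 0. Counts at an unadjusted p are given here and below without the share of all genes under that threshold. Of the 30 fitted values 29 were above 0, with a median of 0.30 against 0.00 over all genes. The 4 chains were Col4a1 (0.65 ± 0.25, edgeR adjusted p = 0.424), Col4a2 (0.61 ± 0.22, edgeR adjusted p = 0.395), Col26a1 (1.79 ± 0.55, edgeR adjusted p = 0.346) and Col20a1 (1.60 ± 0.49, edgeR adjusted p = 0.346). Col4a1 had 158, 71.7, 123, 103 and 117 normalised CPM in wild type and 257, 178, 168 and 118 in F/F hearts. Col3a1 had 366, 185, 168, 173 and 182 against 321, 257, 178 and 228, and Col8a1 12.3, 7.79, 7.79, 9.65 and 9.05 against 12.5, 16.5, 6.04 and 9.98. For Col4a1, Col3a1 and Col8a1 the groups overlapped, and wild type replicate 1 was the highest wild type heart. Endothelial markers had a median log2 value of 0.47 at 1 week, with 0 of 6 called and 4 of 6 at an unadjusted p under 0.05; their part in the type IV values was not tested.

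The F/F effect was larger at 2 weeks than at 1 week for 3 of 30 chains by a test of the difference itself, where 6.52% of all genes were called higher and 5.88% lower; no chain was called lower. These were Col3a1 (log2 difference 1.88 ± 0.52, edgeR adjusted p = 0.0212), Col8a1 (1.87 ± 0.48, edgeR adjusted p = 0.0133) and Col5a2 (1.57 ± 0.52, edgeR adjusted p = 0.0455). Col12a1 (2.38 ± 0.90, edgeR adjusted p = 0.0808) and Col13a1 (-1.56 ± 0.58, edgeR adjusted p = 0.0752) missed the threshold. The differences of all 6 basement membrane chains were below 0, with a median of -0.45 and 0 called. Without F/F replicate 2 of the 2-week hearts 0 chains were called, without replicate 3 only 1, without wild type replicate 6 only 1, and without F/F replicate 1 there were 8. Time and the pool named in the labels coincide between the 1-week and 2-week libraries, so they cannot be told apart.

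At 11 days, with 2 libraries labelled F/F, 0 of 30 chains were called by edgeR, where 0% of all genes were; 6 had an unadjusted p under 0.05, and DESeq2 and limma-voom called 0. The median was -0.37, with 22 of 30 values below 0. Wild type replicate 2 stood apart: Col3a1 was at 177, 554 and 237 normalised CPM in wild type against 226 and 238, and Col1a1 at 34.8, 329 and 96.0 against 54.0 and 61.9. The same library had a smooth muscle and pericyte marker sum of 3006 against 504 and 768 in the other wild type hearts, while its atrial sum of 2212 was below the 3075 of wild type replicate 3. It was also the highest wild type library in fibroblast (2399), endothelial (603), epicardial (78.9), valve or cartilage (106), Schwann cell (2.04) and adipocyte (22.5) sums. In the macrophage and cardiomyocyte sums it was not. The part of any cell type in the values of this library was not tested. Without it the median of the chains was 0.15 and 0 had an unadjusted p under 0.05.

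In the QuantSeq hearts with cGas, Col8a1 alone of 25 chains was called between F/F and F/+ at 2 weeks, higher, where 3.74% of all genes were called higher and 0.891% lower. It had 7.89, 17.1 and 21.5 normalised CPM (lowest, median, highest of 6) in F/+ and 31.6, 46.1 and 90.5 in F/F hearts, a log2 change of 1.56 ± 0.30 (edgeR adjusted p = 0.00473). Its groups did not overlap, a pattern that 2.39% of all genes showed upward. Over the 25 chains the median was 0.38, with 20 above 0, against -0.01 over all genes, and 7 had an unadjusted p under 0.05.

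The fibrillar chains had a median of 0.68 in these hearts and the basement membrane chains one of 0.11. Col3a1 had 101, 120 and 438 normalised CPM in F/+ and 156, 312 and 573 in F/F hearts (log2 0.87 ± 0.39, edgeR adjusted p = 0.226). Col5a2 had 11.1, 13.7 and 31.1 against 16.4, 28.9 and 49.4 (log2 0.85 ± 0.28, edgeR adjusted p = 0.0886). Col1a2 had 69.9, 89.5 and 323 against 121, 186 and 374 (log2 0.61 ± 0.38), and Col1a1 24.2, 38.5 and 136 against 34.7, 62.9 and 130 (log2 0.44 ± 0.40, 95% interval -0.36 to 1.23). In each the highest F/+ value came from replicate 6.

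That F/+ heart had a summed collagen level of 1203 normalised CPM against 389 to 646 in the other F/+ hearts of the group, with an epicardial marker sum of 34.3 against 4.13 to 17.3. It was also the highest of its group in the fibroblast (642), macrophage (106) and valve or cartilage (21.0) sums, but in none of the remaining marker sums. Its atrial sum of 1118 was below that of F/+ replicate 4, at 2232, whose collagen sum was 646. The part of any cell type in the collagen level of this heart was not tested. Without it 7 chains were called, as were 934 of all 14762 genes: Col8a1, Col3a1 (log2 1.34, edgeR adjusted p = 0.0125), Col5a2 (1.10), Col1a2 (1.09), Col5a1 (1.04), Col14a1 (0.98) and Col6a3 (0.75). Without F/F replicate 4, which had the lowest value of its group in 19 of 25 chains, 3 were called, as were 1169 of all 14785 genes. Macrophage markers were called higher in 5 of 6 in the F/F hearts (80.2 to 106 against 126 to 274), and their part in the result was not tested.

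Col12a1, the chain with the largest fitted change in NEBNext, had 4.66, 6.05 and 9.08 normalised CPM in F/+ and 4.74, 5.82 and 6.40 in F/F hearts with cGas (log2 -0.10 ± 0.17, edgeR adjusted p = 0.812, 95% interval -0.44 to 0.24). Without cGas it was at -0.35 ± 0.22 (edgeR adjusted p = 0.662, 95% interval -0.79 to 0.09). Both upper bounds lie below the NEBNext estimate of 2.58. Its mean level was 2.82 CPM in NEBNext and 6.13 CPM in QuantSeq. Kit, control genotype and mice all differ between the designs and cannot be told apart, and the difference between the kits was not tested. Col13a1, which fell in NEBNext, was at -0.44 ± 0.30 with cGas and 0.15 ± 0.37 without.

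Without cGas, 0 of 25 chains were called between F/F and F/+ hearts by edgeR, where 0.5% of all genes were called higher and 0.027% lower. At an unadjusted p under 0.05 there were 10, DESeq2 called 1 (Col8a1, adjusted p = 0.0344) and limma-voom 0. The shares of all genes for these counts are not given. The median was 0.64, with 19 of 25 above 0, against a median of -0.02 over all genes. The ranges that follow take no account of sex, and the F/+ hearts here were all male. Groups did not overlap for 3 chains, all higher in F/F hearts, where 3.21% of all genes showed this: Col3a1 at 78.4, 137, 132 and 157 normalised CPM in F/+ and 375, 163, 205 and 547 in F/F hearts (log2 1.42 ± 0.47, edgeR adjusted p = 0.192), Col5a2 at 11.3, 14.9, 13.3 and 16.0 against 35.5, 19.4, 18.6 and 45.1 (1.18 ± 0.35, edgeR adjusted p = 0.126), and Col14a1 at 6.08, 6.61, 6.37 and 10.4 against 15.2, 17.0, 14.4 and 19.1 (1.04 ± 0.35, edgeR adjusted p = 0.201).

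Col8a1 in hearts without cGas was at 21.4, 23.0, 19.5 and 23.2 normalised CPM in F/+ and at 77.1, 28.4, 16.3 and 77.8 in F/F hearts (log2 1.36 ± 0.37, edgeR adjusted p = 0.0895). F/F replicates 1 and 4, the male F/F hearts, were thus high, and replicate 3, a female, was below all F/+ hearts. With only these 8 libraries in the fit 10 of 25 chains were called, as were 246 of all 13891 genes, the chains including Col3a1 (log2 1.88), Col8a1 (1.83), Col5a2 (1.54) and Col1a1 (1.53). As the F/+ hearts were all male, the sex term of that fit came from the F/F hearts alone. Its contrast thus set the males, F/F replicates 1 and 4, against the F/+ hearts, and is not a comparison of 4 against 4. Macrophage markers summed to 84.0 to 101 in the F/+ group and to 84.4 to 194 in the F/F group without cGas, and their part in these values was not tested.

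**Figure D5:**
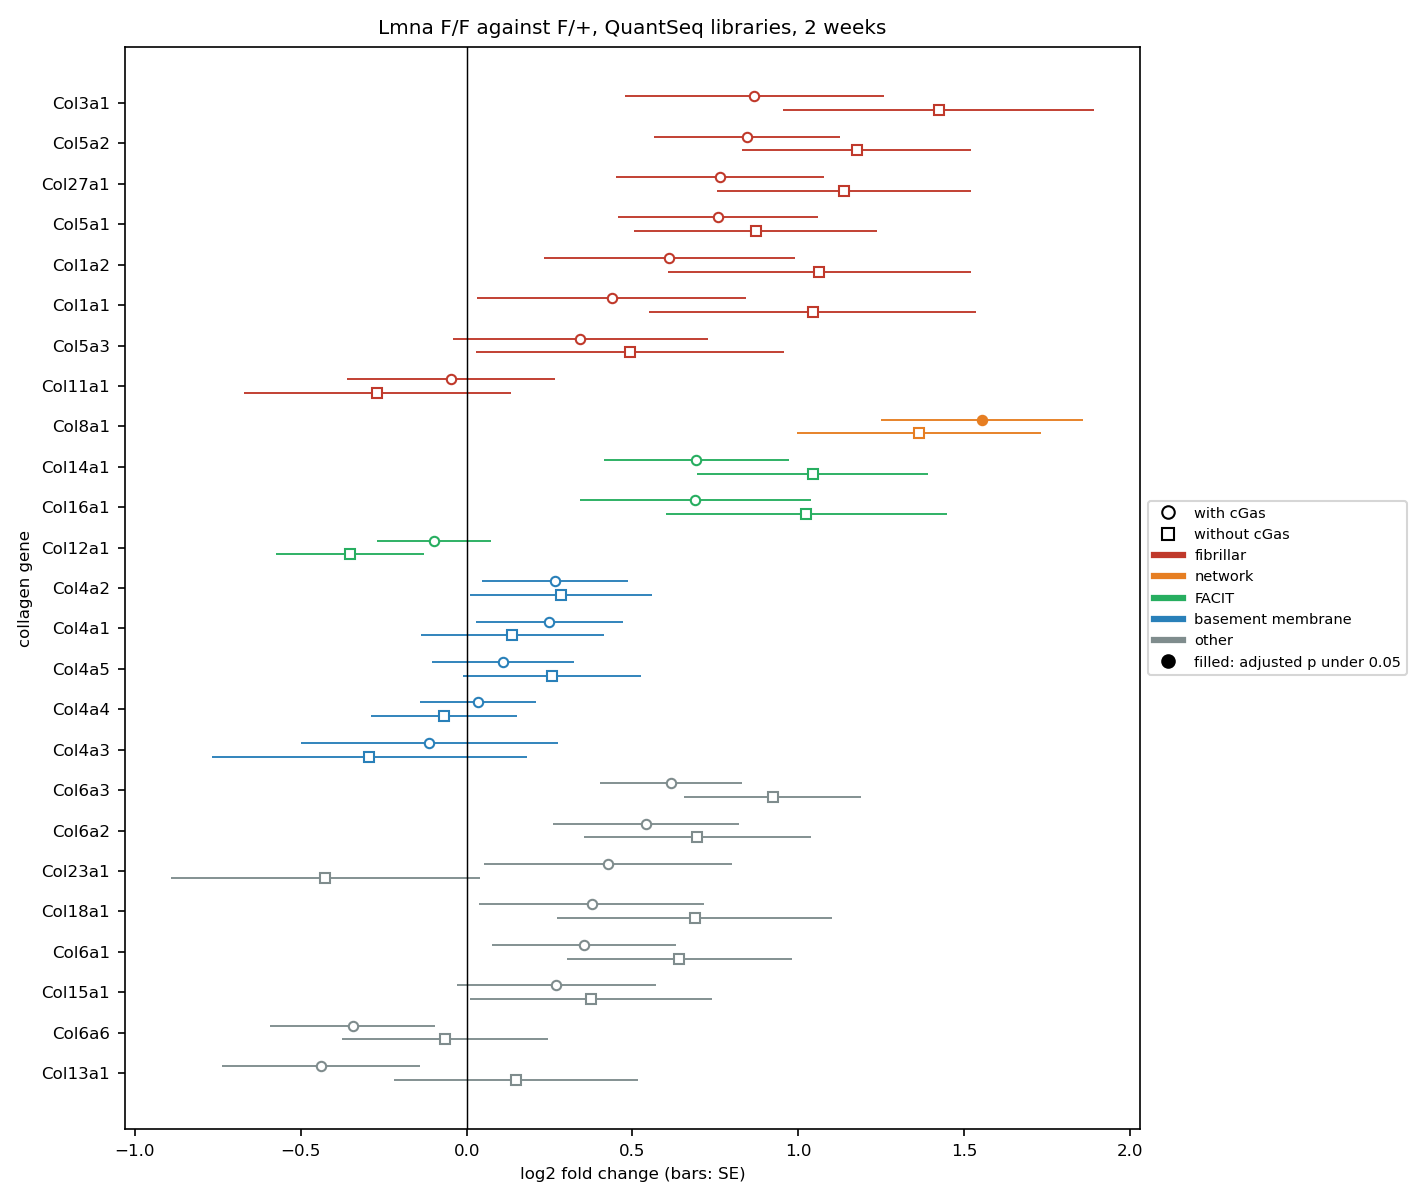
Log2 fold change of each described chain in F/F against F/+ hearts of 2 weeks in QuantSeq libraries, with and without cGas (points; bars are SE), filled where the edgeR adjusted p was under 0.05. Col8a1 lies at 1.56 with cGas and 1.36 without, and Col12a1 at -0.10 and -0.35.

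The F/F effect with and without cGas was compared directly. None of the 25 chains differed, as 0% of all genes did: edgeR, DESeq2 and limma-voom called 0, and 0 had an unadjusted p under 0.05 in edgeR. The differences (without minus with cGas) ran from -0.85 to 0.61. Col8a1 was at -0.19 ± 0.48 (95% interval -1.14 to 0.76), Col3a1 at 0.56 ± 0.63 (95% interval -0.68 to 1.79) and Col1a1 at 0.61 ± 0.65 (95% interval -0.67 to 1.89). Intervals of this width include differences as large as the effect itself in Col3a1, so like effects were not shown.

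Hearts null for cGas were also set against cGas wild type hearts of the same Lmna genotype, comparisons that share their libraries with those above. In F/F hearts 0 of 25 chains were called by edgeR, where 0% of all genes were; 2 had an unadjusted p under 0.05, DESeq2 and limma-voom called 0, and the median was 0.29. Col8a1 was at -0.22 ± 0.33 and Col3a1 at -0.12 ± 0.41 there. In F/+ hearts 0 of 25 were called, where again 0% of all genes were; 2 had an unadjusted p under 0.05, the median was 0.09 and the values ran from -0.68 to 1.17.

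By CPM in QuantSeq, the fibrillar share of collagen counts was 63.4 ± 7.91% (SD, n = 6) in F/+ and 69.9 ± 4.35% in F/F hearts with cGas, and 57.0 ± 2.47% (n = 4) and 67.6 ± 3.95% without. The basement membrane share was 19.3 ± 5.52% and 13.04 ± 3.05% with cGas, and 24.0 ± 1.62% and 14.5 ± 1.62% without. No chain ratio passed the adjusted threshold in QuantSeq, where the smallest exact permutation p is 0.00216 with cGas and 0.0286 without. The ratio test took no account of sex, and the F/+ hearts without cGas were all male. The log2 ratio of Col3a1 to Col1a1 was higher in F/F hearts by 0.42 with cGas (adjusted p = 0.230) and by 0.42 without (exact permutation p = 0.0286, adjusted 0.105). Without cGas the ratio of Col12a1 to Col14a1 was 0.631 to 1.54 in the F/+ group and 0.287 to 0.465 in the F/F group (log2 difference -1.47), which had the same smallest p, did not pass the adjusted threshold and had the opposite sign to the NEBNext difference.

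Genes that make, process and read collagen were counted at 2 weeks in NEBNext over lists chosen with earlier results of these data known. The counts are thus descriptive, and no test of the lists was made. Among all genes 16.2% were called higher and 13% lower there. Of 19 genes of collagen biosynthesis 10 were higher and 1 lower. P4ha3, a prolyl hydroxylase subunit, was at 4.66 ± 0.72 (edgeR adjusted p = 5.22e-05), the lysyl hydroxylase Plod3 at 0.96 ± 0.19 and the chaperone Fkbp10 at 0.84 ± 0.20, while the galactosyltransferase Colgalt2 was at -0.74 ± 0.22 (edgeR adjusted p = 0.0145). P4ha3 was near the floor in wild type hearts, at 0.0575 ± 0.0552 normalised CPM (SD, n = 7), against 2.23 ± 1.49 (n = 5) in F/F hearts. Of 13 genes of processing and crosslinking 8 were higher, led by the lysyl oxidases Lox (3.76 ± 0.46, edgeR adjusted p = 4.78e-06), Loxl4 (1.74 ± 0.53) and Loxl2 (1.65 ± 0.27). Of 10 fibril regulators 7 were higher, led by the matricellular protein gene Postn (3.08 ± 0.47, edgeR adjusted p = 5.16e-05), fibronectin Fn1 (2.23 ± 0.42) and the proteoglycan Bgn (1.21 ± 0.29).

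Of 10 collagen receptors tested 3 were higher: Lair1, an inhibitory receptor of leukocytes, at 2.73 ± 0.31 (edgeR adjusted p = 2.8e-06), the uptake receptor Mrc2 at 0.95 ± 0.29 and the integrin subunit Itgb1 at 0.47 ± 0.14. Of 5 degrading enzymes tested Ctsk, a cathepsin, was at 1.75 ± 0.23 and the membrane protease Mmp14 at 1.22 ± 0.39. In QuantSeq with cGas, where 3.74% of all genes were called higher and 0.891% lower, the calls were 0 of 19 for biosynthesis, 1 of 10 for processing (Pcolce, 0.76 ± 0.20), 3 of 10 for fibril regulators (Postn at 1.87 ± 0.44, with Bgn and Lum), 1 of 9 for receptors (Lair1 at 1.04 ± 0.22) and 0 of 5 for degradation. Without cGas, where 0.5% of all genes were called higher, Lair1 alone of these lists was called (1.26 ± 0.28, edgeR adjusted p = 0.0436).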

How the data were processed

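The submitters' processing notes name STAR 2.7.9 and the build mm39; how genes were counted, on which strand and with which annotation is not given in the sources used. The authors deposited raw read counts per gene and a second table that the file headers call TPM. Its NEBNext columns are deposited TPM, while its 20 QuantSeq columns are deposited CPM, each equal to count over total within 0.01. Columns without a sample numbered 0. Groups come from the labels. Counts were fitted per kit with edgeR 4.0.16 in R 4.3.3 (TMM scaling, filterByExpr with a minimum count of 10 and total of 15, quasi-likelihood test, sex as a covariate and pool within 2 weeks), with Benjamini-Hochberg adjustment over all genes and a threshold of 0.05. The scripts were checked on simulated data. Alternatives used DESeq2 1.42.0, limma 3.58.1 (voom, and log2(TPM + 1)), other scalings and filters, single pools, and each library left out. Chain ratios used counts + 0.5. Members and gene lists were chosen with earlier results of these data known. Values by library are given for the 3 chains of highest TPM in each class and for the 12 largest called changes (NEBNext at 2 weeks, QuantSeq with cGas); from pathway lists the 3 largest called changes are named. TPM is not compared between times, which coincide with pools. p-values of 3' tags and whole-transcript reads were not pooled.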

Additional observations from a re-analysis of the deposited data

Results flagged for a closer look

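In groups of 4 to 10 libraries, 14 of 220 sets of 1 chain in 1 group (6.36%, where chance gives about 1 in 20) held a library far from the others of its group. Values here are normalised CPM. In the QuantSeq F/+ hearts with cGas, replicate 6 was far above the others for Col3a1 (438 against 101 to 182), Col1a2 (323 against 69.9 to 141), Col1a1 (136 against 24.2 to 43.6) and Col5a1 (17.2 against 6.25 to 10.3). Among the wild type hearts of 1 week, replicate 1 was far above the others for Col3a1 (366 against 168 to 185), Col5a2 (42.4 against 15.8 to 20.7), Col5a1 (51.7 against 17.1 to 25.4) and Col4a4 (9.30 against 1.78 to 3.90).

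Among F/F hearts of 2 weeks in NEBNext, Col4a4 was lowest in replicate 3 (3.64 against 6.34 to 6.93) and Col26a1 lowest in replicate 1 (0.168 against 0.961 to 1.05). In QuantSeq, Col6a3 was highest in replicate 5 of the F/F hearts with cGas (33.1 against 16.2 to 22.5), Col5a3 in replicate 4 of the F/F hearts without cGas (15.9 against 4.32 to 5.55), and Col14a1 in replicate 4 of the F/+ hearts without cGas (10.4 against 6.08 to 6.61). Col6a1 was lowest in replicate 1 of the last group (4.66 against 10.6 to 11.6).

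The F/F effect differed between 2 weeks and 1 week, by a test of the difference, for Col3a1 (1.88 on the log2 scale), Col5a2 (1.57) and Col8a1 (1.87).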

How the results depend on the processing

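No paired analysis was possible because the titles carry no replicate numbers shared between groups. Numbers of called chains are given here without the share of all genes called in the same setting. They thus do not show whether a change between settings was particular to the chains. With no filter on low counts they were 2 at 1 week, 4 at 11 days (all lower), 9 for the difference between 2 weeks and 1 week, 10 with cGas and 11 without. DESeq2 called 2 with cGas and 1 without, and a fit of only the libraries of the groups compared 2 and 10. Without cGas the contrast of that last fit rested on the male F/F hearts, as the F/+ hearts were all male. Without sex as a covariate 2 were called with cGas. In pool KIUC033 alone 1 was called at 2 weeks. Leaving out 1 library gave 8 to 15 at 2 weeks, 0 to 8 for the difference between times, 1 to 7 with cGas and 0 to 1 without, and 0 to 7 of the chain ratios at 2 weeks. The difference in the Col12a1 to Col14a1 ratio at 2 weeks turned to -0.17 in deposited TPM. The cause of these changes was not tested. With library totals and no scaling factor the median of all genes at 2 weeks moved from 0.04 to 0.29 and that of the chains from 0.63 to 0.90, with 15 called. A tally of the other alternatives covered chains and ratios past the threshold in the main fit or an alternative, and the numbers of described chains. Of these values 577 kept direction and side of the threshold, 74 newly passed it, 24 no longer did and 1 reversed. With 1 library left out 783 kept both, 23 newly passed and 40 no longer did. Precision is limited by groups of 2 to 7 libraries.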
